A study of Homo sapiens with 12 samples.

Results

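The genes examined were 10 members of the activin and bone morphogenetic protein (BMP) branches of the transforming growth factor beta family, INHBA, INHBB, FST, BMP2, BMP4, BMP7, MSX1, MSX2, ID1 and ID3, out of 33331 genes listed in the 2 deposited tables. They were chosen by name, with earlier results of these same libraries known, the fold changes of both comparisons among them, so their levels and fold changes are given as a description and no p-value is attached to them. Calls given for members, and counts of such calls, belong to that description. A further 9 lists of pathway genes, 107 genes with a row in either table, were examined beside them. SW480 is a human colorectal adenocarcinoma line, and ALDH1B1 encodes a mitochondrial aldehyde dehydrogenase. An ALDH1B1 knockout clone expressed either ALDH1B1 or, as its control, the fluorescent protein EGFP. The parental line received for 24 h either DMSO, the solvent, or a compound labelled as ALDH1B1-selective, at 2 µM. All cells grew in RPMI medium with 10% serum, and each of the 4 groups had 3 libraries, given as biological replicates. The knockout is 1 clone, so clone and genotype cannot be told apart.

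Activins are dimers of inhibin beta subunits, and BMPs are related secreted dimers. Both bind pairs of type I and type II receptor kinases on the cell surface. Activin receptors phosphorylate SMAD2 and SMAD3 and BMP receptors phosphorylate SMAD1, SMAD5 and SMAD9, and either set enters the nucleus with SMAD4. In the intestine BMP signals are known for restraining stem cells near the crypt base and promoting differentiation toward the surface. ID and MSX genes are known BMP responders.

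The 12 libraries held between 32617089 and 39018926 reads assigned to genes. ALDH1B1 was at 96.8 to 102 CPM (reads of a gene scaled to a common library size) in the clone carrying ALDH1B1, at 17.8 to 18.7 CPM with EGFP, at 46.1 to 53.4 CPM in the parental line with DMSO and at 50.3 to 51.0 CPM with the inhibitor. The EGFP libraries still held 635 to 683 ALDH1B1 reads each. Epithelial markers differed between clone and parental line. VIL1, which encodes the brush border protein villin, was at 339 CPM or more in every parental library and at 0.53 CPM or less in every clone library, and CDH17, an intestinal cadherin gene, was at 26.0 CPM or more against 0.951 CPM or less. EPCAM, an epithelial adhesion gene, and CDH1, the E-cadherin gene, were also lower in the clone carrying ALDH1B1 than with DMSO, by log2 values of -2.51 and -2.99. CDX2, an intestinal homeobox gene, was higher in that clone by 0.99, and the keratin genes KRT8, KRT18 and KRT19 by 0.29, 0.28 and 0.35. Of the 8 epithelial markers tested between the lines, 4 were thus higher and 4 lower. The 8 fibroblast markers summed to 21.0 to 21.9 CPM with ALDH1B1, 26.1 to 27.9 CPM with EGFP, 12.5 to 13.4 CPM with DMSO and 11.5 to 13.9 CPM with the inhibitor. COL1A1, PDGFRB and, in the parental line, LUM made up most of these sums, and COL3A1, DCN, FAP and PDGFRA were at 0 to 0.135 CPM wherever listed. EGFP replicate 3 and DMSO replicate 2 stood apart from the other libraries of their groups.

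Most members differed in level between the clone and the parental line, and for most the arms within either line lay closer together than the lines. INHBA in the clone and ID3 in the parental line had arms further apart, with no overlap. The promoters of 4 members are shown because they belong to the members with the widest spread of group means among those well expressed, INHBB, MSX1 and ID1, and to ID3, the second ID gene. Each is the 250 bases upstream of the annotated start in RefSeq on GRCh38.p14, written 5′ to 3′ on the strand of the gene. Their positions are chr2:120345886-120346135 on the plus strand for INHBB, chr4:4859415-4859664 on the plus strand for MSX1, chr20:31605039-31605288 on the plus strand for ID1 and chr1:23559502-23559751 on the minus strand for ID3. Capitals mark any match, on either strand, to GGCGCC (a BMP SMAD motif), CAGAC and GTCTAGAC (SMAD3 and SMAD4 motifs), TATAAA or CCAAT.
INHBB: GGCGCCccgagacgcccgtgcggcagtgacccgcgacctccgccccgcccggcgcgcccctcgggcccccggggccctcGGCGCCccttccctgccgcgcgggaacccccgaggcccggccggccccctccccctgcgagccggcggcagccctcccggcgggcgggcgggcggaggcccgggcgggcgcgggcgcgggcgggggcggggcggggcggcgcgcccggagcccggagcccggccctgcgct
MSX1: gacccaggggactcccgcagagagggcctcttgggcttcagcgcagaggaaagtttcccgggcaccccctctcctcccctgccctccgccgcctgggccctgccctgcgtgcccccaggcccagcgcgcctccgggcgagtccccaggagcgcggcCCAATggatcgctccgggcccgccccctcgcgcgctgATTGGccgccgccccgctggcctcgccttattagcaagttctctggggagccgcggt
ID1: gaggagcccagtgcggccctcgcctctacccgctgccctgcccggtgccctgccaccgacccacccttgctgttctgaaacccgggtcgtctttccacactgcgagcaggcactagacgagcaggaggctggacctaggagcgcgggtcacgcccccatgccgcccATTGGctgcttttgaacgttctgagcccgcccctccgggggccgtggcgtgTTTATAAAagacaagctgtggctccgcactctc
ID3: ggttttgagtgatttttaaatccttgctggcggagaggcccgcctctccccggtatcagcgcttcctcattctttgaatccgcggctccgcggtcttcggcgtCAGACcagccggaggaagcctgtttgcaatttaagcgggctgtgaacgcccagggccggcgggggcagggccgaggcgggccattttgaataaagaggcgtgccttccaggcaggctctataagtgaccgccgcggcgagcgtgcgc

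The INHBB window held GGCGCC at 2 positions and had a GC content of 89.6%. The ID1 window held 2 overlapping matches to TATAAA, 1 on each strand, and 1 to CCAAT. MSX1 held 2 matches to CCAAT and ID3 held 1 to CAGAC. Among 27305 RefSeq promoter windows of 250 bases, 16.1% held GGCGCC, 37.8% CAGAC, 0.176% GTCTAGAC, 11.1% TATAAA and 33% CCAAT. Of the 10 members, 8 were matched to a RefSeq promoter, and BMP2 and BMP7 were not. A match describes letters only, since binding was not measured. The RefSeq starts need not match the gene spans given below. The ID3 window lies within the ID3 span, and the ID1 window ends just past the start of the ID1 span.

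INHBB (hg38 chromosome 2, 120346143 to 120351808, plus strand) encodes the inhibin beta B subunit of activin B. It was at 437, 471 and 468 CPM with DMSO, at 456, 452 and 414 CPM with the inhibitor, at 8.99, 8.13 and 7.48 CPM in the clone with ALDH1B1 and at 8.05, 8.21 and 6.46 CPM with EGFP. Every parental library was above every clone library, and the 2 arms overlapped within each line. In these bulk libraries fewer cells with a transcript and less of it per cell cannot be told apart. INHBA (chromosome 7, 41667168 to 41705834, minus strand) encodes the beta A subunit of activin A. It was at 7.12, 9.21 and 7.19 CPM with DMSO, at 8.14, 7.63 and 9.02 CPM with the inhibitor, at 0.552, 0.497 and 0.572 CPM in the clone with ALDH1B1 and at 0.781, 0.971 and 1.07 CPM with EGFP. The parental arms overlapped and the clone arms did not, EGFP being the higher, on 18 to 21 reads per library with ALDH1B1 and 29 to 38 with EGFP. Per length, in the deposited FPKM, INHBB was at 141 ± 6.5 (SD, n = 3) and INHBA at 0.928 ± 0.15 (SD, n = 3) with DMSO, so the beta B transcript was the more abundant in the parental line.

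FST (chromosome 5, 53480409 to 53487134, plus strand) encodes follistatin, a secreted protein that binds activins and holds them away from their receptors. It had 2, 1 and 4 reads in the clone with ALDH1B1 and 6, 5 and 4 reads with EGFP. It is not listed in the parental table, where listed genes have at least 2 reads over 6 libraries, and it passed no filter on low counts, so no fold change is given.

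Among the BMP ligands, BMP4 (chromosome 14, 53949736 to 53958761, minus strand) was at 905, 898 and 886 CPM in the clone with ALDH1B1 and at 884, 870 and 877 CPM with EGFP. In the parental line it was at 217, 197 and 206 CPM with DMSO and at 207, 210 and 224 CPM with the inhibitor. The clone was above the parental line in every library, the clone arms did not overlap, although they lay within a small range of each other, and the parental arms overlapped. BMP4 was the most abundant of the 10 members per length in the clone, at 289 ± 3.8 FPKM (SD, n = 3) with ALDH1B1. BMP7 (chromosome 20, 57168748 to 57266629, minus strand) was at 257, 246 and 242 CPM with ALDH1B1, at 270, 277 and 241 CPM with EGFP, at 174, 174 and 186 CPM with DMSO and at 203, 205 and 210 CPM with the inhibitor. All inhibitor libraries were above all DMSO libraries, and the clone arms overlapped. BMP2 (chromosome 20, 6767664 to 6780280, plus strand) was at 8.64, 8.05 and 8.15 CPM with DMSO and at 8.40, 10.8 and 10.7 CPM with the inhibitor. In the clone it had 17, 7 and 1 reads with ALDH1B1 and 8, 8 and 14 reads with EGFP, all below the parental libraries, and it did not pass the filter on low counts in the knockout comparison.

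Of the response genes, MSX1, MSX2 and ID1 divided by line, and ID3 did not. MSX1 (chromosome 4, 4859666 to 4863936, plus strand), a homeobox repressor gene, was at 568, 547 and 519 CPM in the clone with ALDH1B1 and at 536, 589 and 534 CPM with EGFP. In the parental line it was at 9.88, 9.99 and 8.47 CPM with DMSO and at 12.01, 11.3 and 10.4 CPM with the inhibitor. Every clone library was above every parental one, the clone arms overlapped, and the inhibitor libraries were all above the DMSO libraries. Its paralog MSX2 (chromosome 5, 174724533 to 174730893, plus strand) had the opposite order, at 29.3, 25.2 and 25.5 CPM with ALDH1B1, 25.7, 24.5 and 29.7 CPM with EGFP, 102, 95.0 and 98.3 CPM with DMSO and 98.2, 103 and 100 CPM with the inhibitor. Neither pair of arms was separate for MSX2.

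ID1 (chromosome 20, 31605283 to 31606515, plus strand) and ID3 (chromosome 1, 23557918 to 23559794, minus strand) encode helix-loop-helix proteins without a DNA-binding region, which capture E proteins and keep them from DNA. ID1 was at 74.9, 66.8 and 73.7 CPM with DMSO and at 89.1, 87.4 and 89.3 CPM with the inhibitor, with no overlap. In the clone it was at 3.16, 3.19 and 2.56 CPM with ALDH1B1 and at 2.56, 3.18 and 2.56 CPM with EGFP, which overlapped and lay below every parental library. ID3 was low everywhere, at 48, 40 and 43 reads with DMSO, 88, 69 and 60 with the inhibitor, 71, 81 and 69 in the clone with ALDH1B1 and 74, 55 and 70 with EGFP. In CPM it was 1.22 ± 0.089 (SD, n = 3) with DMSO and 1.96 ± 0.32 (SD, n = 3) with the inhibitor, and those arms did not overlap. The inhibitor libraries overlapped both clone arms for ID3, and the DMSO libraries lay below all others. The exons of all 10 members shared 0% of their bases with other annotated genes.

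**Figure D1:**
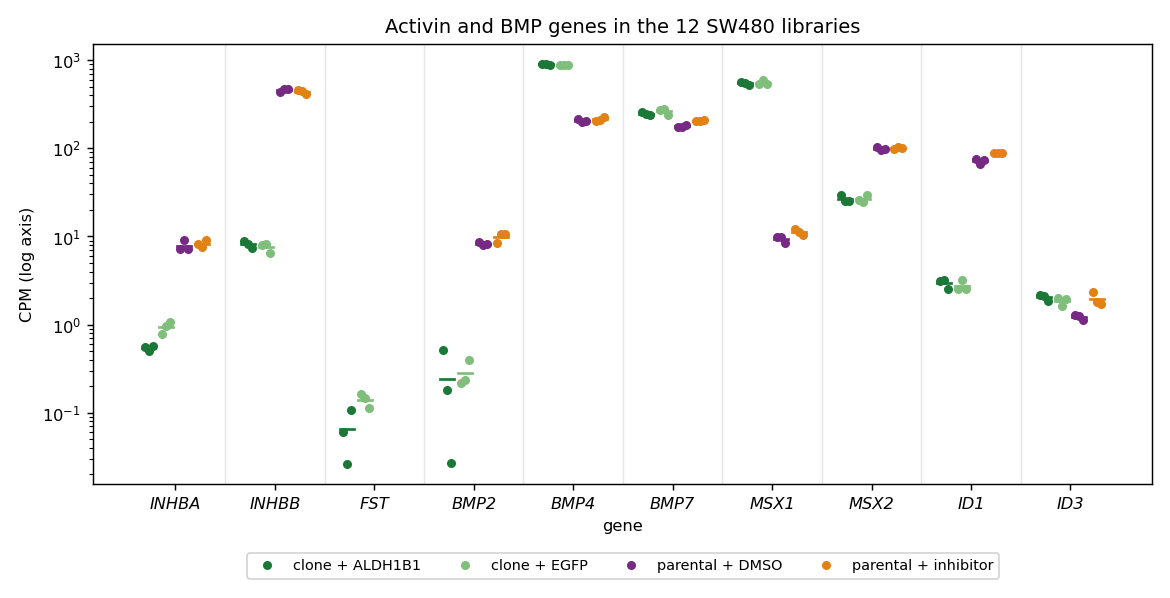
CPM on a log axis for each of the 10 genes, with 1 point per library and a bar at the mean of each group of 3. INHBB, ID1, INHBA, BMP2 and MSX2 sit higher in the parental line, and MSX1 and BMP4 sit higher in the clone. For these genes the arm means within a line lie closer together than the lines. FST has no parental points because it is not listed there.

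In the clone, EGFP against ALDH1B1, 0 of the 8 members tested were called at a Benjamini-Hochberg adjusted p of 0.05 in edgeR's quasi-likelihood test, where 17.6% of 17404 genes were called. At an unadjusted p under 0.05 the count was 1, against 5395 of the 17404 genes. Nothing is read from these counts, since the members were chosen with this contrast known. On the log2 scale INHBA was at 0.80 (SE 0.30), BMP7 at 0.08 (SE 0.05), MSX1 at 0.02 (SE 0.05) and MSX2 at 0.00 (SE 0.08). INHBB was at -0.11 (SE 0.12), BMP4 at -0.03 (SE 0.04), ID1 at -0.10 (SE 0.17) and ID3 at -0.14 (SE 0.19). INHBA and BMP4 were the 2 tested members whose arms did not overlap, against 35.1% of all genes tested. INHBA was called when all 12 libraries were fitted together, at 0.78, and BMP7 when EGFP replicate 3 was left out, at 0.14.

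In the parental line, inhibitor against DMSO, 2 of the 9 members tested were called, both higher, where 3.99% of 17848 genes were called and 1.89% were called higher. At an unadjusted p under 0.05 the count was 5, against 3523 of the 17848 genes. Again nothing is read from the counts. ID1 was higher by 0.30 (SE 0.06) on the log2 scale, a ratio of means of 1.23, and BMP7 by 0.21 (SE 0.05), a ratio of 1.16. ID1 was called under all 12 alternatives, between 0.24 and 0.33. These refit libraries whose results were known when ID1 was chosen, so they describe its value and give no support for it. BMP7 was not called in 5 of the 6 fits that left out 1 library, all but the one without inhibitor replicate 1. ID3, at 0.68 (SE 0.22), and MSX1, at 0.25 (SE 0.10), were not called although their arms did not overlap, which held for 4 members here and for 23.6% of all genes tested. BMP2 was at 0.26 (SE 0.11), INHBA at 0.08 (SE 0.12), BMP4 at 0.05 (SE 0.05), MSX2 at 0.02 (SE 0.05) and INHBB at -0.06 (SE 0.05), all uncalled.

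**Figure D2:**
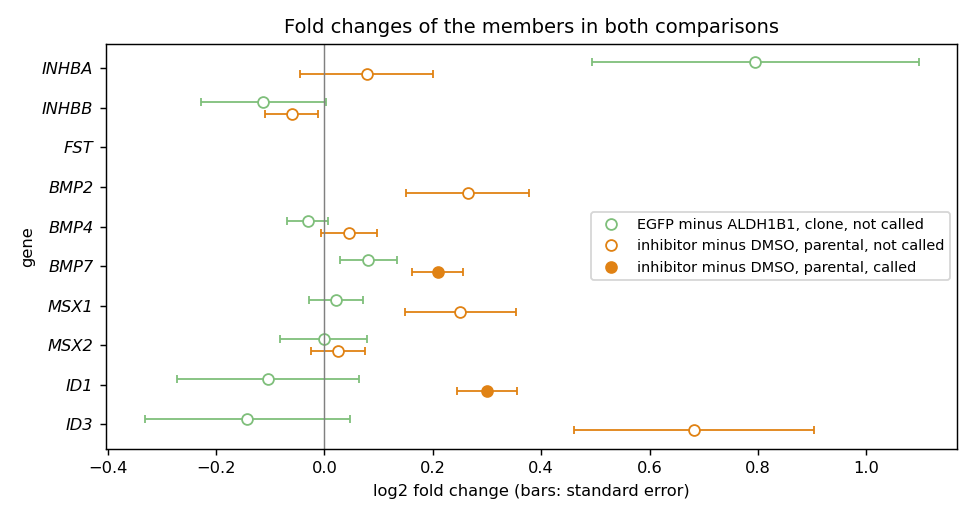
Log2 fold changes of the members in the clone (EGFP minus ALDH1B1) and in the parental line (inhibitor minus DMSO), with bars for the standard error and filled points for called genes. ID1 at 0.30 and BMP7 at 0.21 are the filled points, INHBA at 0.80 and ID3 at 0.68 have wide bars, and FST in both and BMP2 in the clone have no value because they were not tested.

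**Figure D3:**
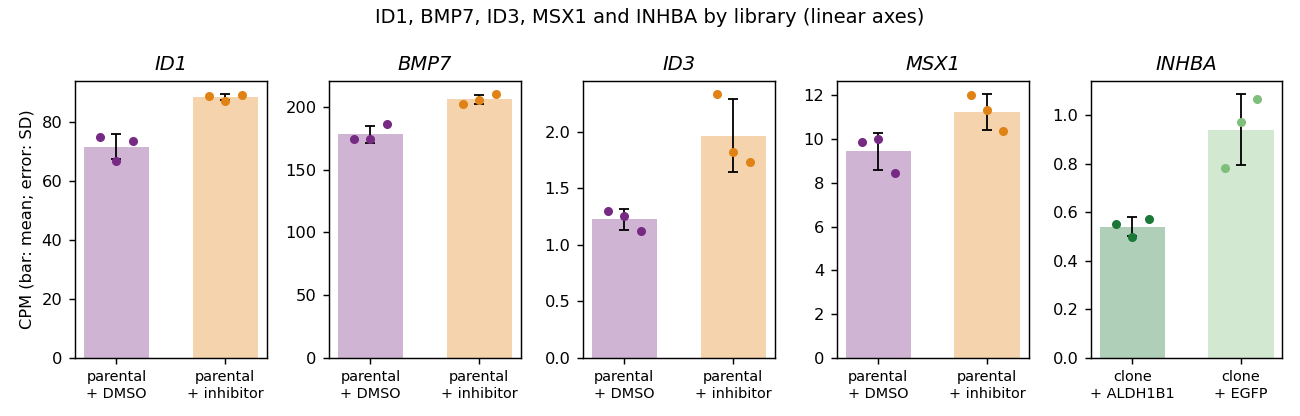
CPM on linear axes from 0 for ID1, BMP7, ID3 and MSX1 in the parental arms and INHBA in the clone arms, with bars for the mean, error bars for the SD of 3 libraries and points for each library. The panels show pairs of arms that did not overlap, so the points are separate in each by choice. BMP4 in the clone, also without overlap at a log2 fold change of -0.03, is not shown. ID3 and INHBA have few reads.

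The difference between the 2 comparisons, knockout minus inhibitor, was also fitted over all 12 libraries. Of the 9 members tested 0 were called, where 5.11% of 19075 genes were called. At an unadjusted p under 0.05 the count was 4, against 3740 of the 19075 genes. BMP2 is among the 9 and passed the filter on low counts only through the parental libraries. Nothing is read from these counts. ID1 differed by -0.43 (SE 0.14) on the log2 scale, ID3 by -0.85, INHBA by 0.69 and MSX1 by -0.26, each uncalled. ID1 was called with DESeq2, at -0.42, without ALDH1B1 replicate 3, at -0.53, and without EGFP replicate 2, at -0.51. A call for ID1 in the parental line and none in the clone therefore does not show that the 2 responses differ.

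Between the clone carrying ALDH1B1 and the parental line with DMSO, 8 members passed the filter on low counts through both lines and all 8 were called, 4 higher and 4 lower, where 75.3% of 19075 genes were called, 38% higher and 37.4% lower. On the log2 scale MSX1 was higher in the clone by 5.89, BMP4 by 2.15, ID3 by 0.78 and BMP7 by 0.51. INHBB was at -5.77, ID1 at -4.56, INHBA at -3.82 and MSX2 at -1.85. These 8 kept their call and direction in each of the 9 alternatives, which refit the same libraries. BMP2 passed the filter only through the parental libraries, where it is high, so its value of -5.09 is not counted. The tables of the 2 lines were deposited separately, and line, clone, construct and DMSO cannot be told apart in this contrast. The differences in epithelial markers described above, 4 higher and 4 lower, go with the same split, and their part in these values was not tested.

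For the 2 members with the widest range of group means above 5 CPM, the genes most alike by Pearson correlation of log2 CPM over the 12 libraries were sought among 11453 genes. For INHBB these were CLDN7, XK and SPNS2, each with r of 0.9997. Within the 6 clone libraries r was 0.98, 0.923 and 0.935, and within the 6 parental libraries 0.362, 0.324 and 0.943. For MSX1 they were WNT5A-AS1, KCND3 and STMN3, with r of 0.9997, 0.9996 and 0.9995. Within the clone r was 0.957, -0.0497 and 0.754, and within the parental line 0.866, 0.871 and 0.905. The 12 libraries share 2 lines, and the high values follow that split.

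Beyond the members, several pathway genes changed in the clone. Of 87 tested genes in the 9 other lists, 17 rose and 5 fell with EGFP, 25.3% against 17.6% of all genes, with a median log2 fold change of 0.08 against 0.01. The lists were written with earlier results of these libraries known, so the share is a description. The same holds for the adjusted p-values of list genes here and below, which are not independent evidence. Calls near the threshold were lost when 1 library was left out, in 4 of 6 such fits for DLX2 and PCSK6, 3 for RUNX2 and TLL2 and 2 for INHBE, LTBP2, LTBP3, NBL1, PCSK5, TAGLN and TWSG1. The count was 8 without ALDH1B1 replicate 2 and 10 without EGFP replicate 1.

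By role, 4 of 13 other ligands rose. GDF15, a stress-induced family member, went from 13.4 ± 0.53 to 19.5 ± 1.7 CPM (SD, n = 3) (log2 fold change 0.54, SE 0.08, edgeR adjusted p = 0.000443). TGFB2, a TGF-beta ligand, was higher by 0.47 (SE 0.08, edgeR adjusted p = 0.00132), BMP8B by 0.35 (edgeR adjusted p = 0.00564) and INHBE, an activin subunit gene, by 0.44 (edgeR adjusted p = 0.0117). Other genes share 26.6% of the exonic bases of TGFB2. None of 15 receptors and coreceptors, none of 11 intracellular and membrane inhibitors and none of 3 E protein genes were called. Of 6 signalling SMAD genes SMAD3 was called, at 0.15 (edgeR adjusted p = 0.0421), and lost the call in 8 of 11 alternatives, 5 of them fits without 1 library. SMAD4, the shared partner, was low at 2.45 ± 0.50 CPM with ALDH1B1 and 2.83 ± 0.19 CPM with EGFP (SD, n = 3), and neither it (adjusted p = 0.487 in edgeR) nor SMAD1 (0.984) or SMAD5 (0.617) was called.

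Among 5 secreted antagonists TWSG1 rose by 0.22 (edgeR adjusted p = 0.00814) and NBL1 fell by 0.27 (edgeR adjusted p = 0.0305). Of 12 other BMP response genes 4 rose. They were ID2, from 156 ± 2.7 to 182 ± 2.5 CPM (SD, n = 3; log2 fold change 0.22, edgeR adjusted p = 0.00228), HEYL at 0.49, RUNX2 at 0.15 and DLX2 at 0.51. ID1, at -0.10 (SE 0.17), and ID3, at -0.14 (SE 0.19), were low in the clone and not called. Whether they differ from ID2 was not tested.

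Of 12 other activin and TGF-beta response genes 4 rose and 2 fell. CCN2, which encodes a matrix-associated growth regulator, was at 24.4, 25.9 and 26.4 CPM with ALDH1B1 and at 38.8, 41.7 and 39.8 CPM with EGFP, with no overlap (log2 fold change 0.65, SE 0.06, edgeR adjusted p = 8.45e-06). CDKN2B, a cyclin-dependent kinase inhibitor gene, rose by 0.36 (edgeR adjusted p = 0.000545). LTBP2, a latent TGF-beta binding protein family gene, fell by 0.19 (edgeR adjusted p = 0.0135), and TAGLN, an actin-binding protein gene, fell by 0.47 (edgeR adjusted p = 0.0148). Of 10 genes for ligand processing and matrix storage, LTBP4, LTBP3 and TLL2 rose, by 0.22, 0.16 and 0.60, and the proprotein convertase genes PCSK5 and PCSK6 were lower, at -0.20 and -0.26. Of the 8 fibroblast markers 3 were tested in this comparison. PDGFRB rose by 0.93 (edgeR adjusted p = 0.000117) and COL1A2, at 0.677 CPM or less, by 1.30 (edgeR adjusted p = 0.0407), while COL1A1, the most abundant of them in the clone, was at -0.04 (edgeR adjusted p = 0.764). The part of these markers in the pathway values was not tested. Of 8 epithelial markers KRT19 fell by 0.46, KRT8 fell by 0.23 and KRT18 fell by 0.16, and CDX2 rose by 0.31 and VIL1 by 1.72 on few reads.

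In the parental line 3 of 89 tested pathway genes rose and 3 fell with the inhibitor, 6.74% against 3.99% of all genes, with a median log2 fold change of 0.04 against 0.00. The count was 1 without inhibitor replicate 3 and 3 without DMSO replicate 3. JUNB, an AP-1 gene, went from 66.0, 61.8 and 61.4 CPM to 80.0, 82.6 and 77.3 CPM (log2 fold change 0.34, SE 0.05, edgeR adjusted p = 0.0025), and 14.2% of its exonic bases are shared with other genes. GDF15 rose by 0.41 (edgeR adjusted p = 0.0111) and lost its call in 1 of 12 alternatives. INHBE rose by 0.21 (edgeR adjusted p = 0.0395), but lost its call in 7 of 12 alternatives, 5 of them fits without 1 library.

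TGFBR2, the type II receptor for TGF-beta, went from 112, 126 and 113 CPM with DMSO to 96.8, 97.3 and 86.4 CPM with the inhibitor (log2 fold change -0.33, SE 0.06, edgeR adjusted p = 0.00731). PMEPA1, a TGF-beta-induced gene whose product holds back SMAD2 and SMAD3, was at 60.2, 82.2 and 76.0 CPM against 55.0, 55.7 and 44.5 CPM (log2 fold change -0.49, SE 0.10, edgeR adjusted p = 0.0124). TAGLN was lower, at -0.56 (edgeR adjusted p = 0.02), and lost its call in 4 of 12 alternatives. PMEPA1 lost its call in 2 of 12 alternatives and TGFBR2 in 1 of 12. All 3 of these genes had arms that did not overlap. No gene was called among 12 other BMP response genes, and ID2 was at -0.15 (edgeR adjusted p = 0.291), nor among 6 SMAD genes, where SMAD4 was at 0.15 (edgeR adjusted p = 0.615), SMAD1 at 0.15 (edgeR adjusted p = 0.31) and SMAD5 at 0.01 (edgeR adjusted p = 0.964). Nor was any called among 5 secreted antagonists, 11 genes for processing and storage, 3 E protein genes or 3 fibroblast markers, while VIL1 rose by 0.20 (edgeR adjusted p = 0.0202).

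**Figure D4:**
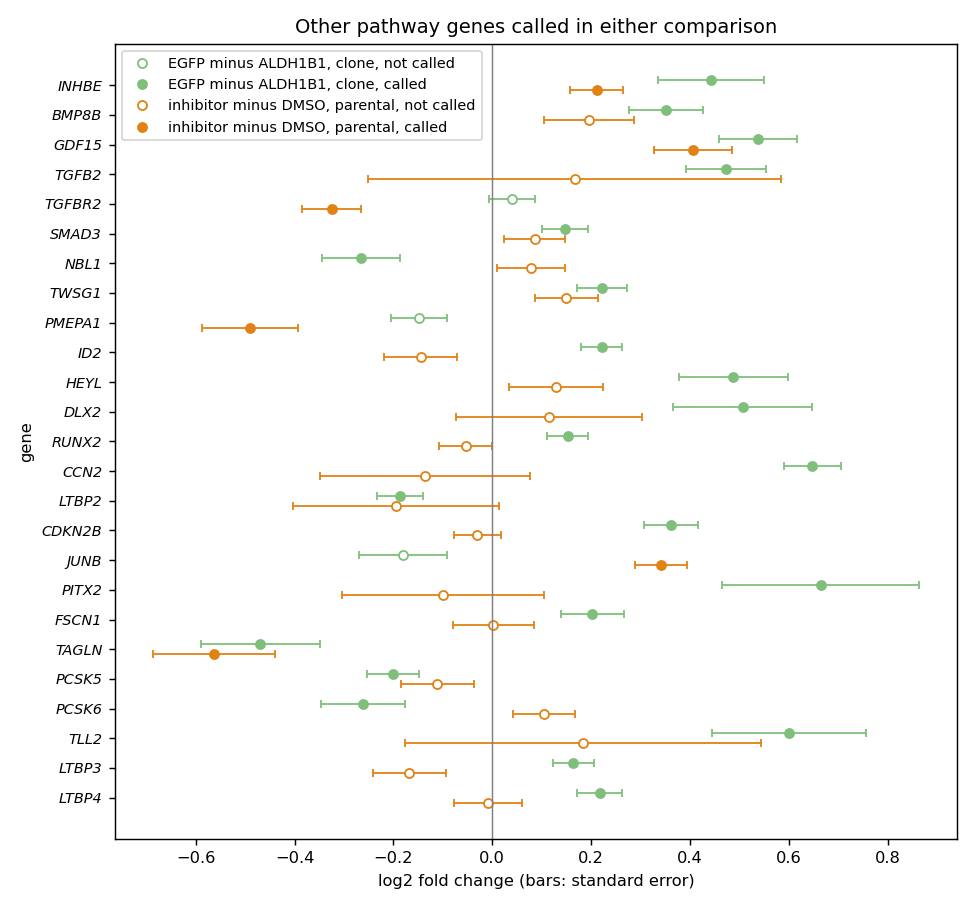
Log2 fold changes with standard errors for 25 other pathway genes called in either comparison, with filled points where called. GDF15 and INHBE are filled to the right and TAGLN to the left in both comparisons, although INHBE lost its parental call in 7 of 12 alternatives.

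Against the parental line, 78 of 94 tested pathway genes were called in the clone carrying ALDH1B1, 37 higher and 41 lower, 83% against 75.3% of all genes. Some of them, NOG, CHRD and FBN2 among those named, passed the filter only through the line in which they are high, so the count is no measure of the pathway. Among ligands INHBE was at -4.65, GDF15 at -3.12 and GDF11 at 2.42, and BMP5 had 3 to 8 reads per library in the clone against 459 to 647 with DMSO. Among receptors and coreceptors RGMA was at -4.43, TDGF1 at -4.40, BMPR2 at 1.73 and TGFBR3 at 2.71. The antagonist genes NOG and CHRD, which encode the BMP-binding proteins noggin and chordin, had 48 to 79 and 122 to 146 reads per library in the clone and 1 to 3 and 4 to 8 reads with DMSO, so no fold is given. TWSG1 was at 1.70 and NBL1 at 1.20. The SMAD genes moved less, with SMAD2 at -0.87, SMAD4 at -1.0, SMAD9 at -1.07 and SMAD5 at 0.69. Response genes went both ways, with LTBP2 at 6.81, GATA2 at 3.85, CDKN1A at 2.32, RUNX2 at 1.69, CDKN2B at -1.30, RUNX3 at -2.92, DLX3 at -3.66 and ITGB6 at -3.83. Among inhibitors SMURF2 was at 0.88, SMURF1 at 0.66, TGIF2 at -0.55 and PMEPA1 at -0.93, and among processing and storage genes TLL2 was at 2.54, LTBP3 at -0.99 and PCSK5 at 0.84, and FBN2 had 1 to 5 reads per library against 82 to 97. Of the E protein genes, whose products the ID proteins bind, TCF4 was at -3.18, TCF12 at -0.74 and TCF3 at 0.97. The TCF4 value rests on 0.109 to 0.523 CPM in the clone carrying ALDH1B1.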

How the data were processed

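Polyadenylated RNA of 12 SW480 libraries was sequenced. Tools named in the submitters' processing notes are fastp, STAR and DESeq2, with hg38 and no versions; the counting program and strand setting are not given. The authors deposited whole-number read counts per gene and FPKM in 2 tables, per the file headers. Another 13 columns of per-sample values were not used. One inhibitor count column has no replicate number.

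Tests were edgeR 4.0.16 (R 4.3.3; glmQLFTest, TMM, filterByExpr defaults, Benjamini-Hochberg over all genes tested, threshold 0.05), on the 6 libraries of each line, or all 12 for the difference and for clone against parental line. Standard errors came from the F statistic, and "called" means past the threshold. CPM used TMM sizes over 12 libraries. Members and lists were chosen with earlier results of these data known. Named were all members, up to 4 called genes per other list and comparison by smallest p, SMAD1, SMAD4, SMAD5, ID2, and the 3 genes most like INHBB and MSX1; KRT18, PCSK6 and the markers of the opening were named after their values were seen. One gene is not reported here. Exon overlap is from GENCODE 29. Exonic bases shared with other genes were 44% for VIL1, 26.6% for TGFB2, 20.6% for ITGB6 and 20% for PCSK6. They were 17.8% for NBL1, 16.3% for KRT18 and 15.8% for PDGFRA. The part of these bases in the values was not tested. Tests were checked on simulated counts. Alternatives were relative log expression factors, no filter, DESeq2 1.42.0, each library left out, 1 fit over 12 libraries and a replicate block.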

Additional observations from a re-analysis of the deposited data

Results flagged for a closer look

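The knockout and inhibitor comparisons differed, by the interaction term in edgeR over all 12 libraries, for 8 of 94 tested pathway genes outside the members (knockout minus inhibitor, log2), where 5.11% of all genes were called. JUNB differed by -0.55 (edgeR adjusted p = 0.00436), CDKN2B by 0.37 (edgeR adjusted p = 0.00511), TGFBR2 by 0.34 (edgeR adjusted p = 0.0175) and GDF11 by -0.37 (edgeR adjusted p = 0.0178). CCN2 differed by 0.76 (edgeR adjusted p = 0.0213), ID2 by 0.34 (edgeR adjusted p = 0.0272), TDGF1, on 0.889 to 2.12 CPM in the clone, by 0.77 (edgeR adjusted p = 0.0342) and PCSK6 by -0.39 (edgeR adjusted p = 0.0445). The count was between 2 and 10 when 1 library was left out. Some of the 94 genes, NOG, CHRD and FBN2 among them, passed the filter only through the line in which they are high. The count is therefore no measure of the pathway. The lists were written with earlier results of these libraries known, so these adjusted p-values are a description and not independent evidence. PCSK6 kept its call in 4 of 15 alternatives, TDGF1 and ID2 in 9 each, CCN2 and GDF11 in 11 each and TGFBR2 in 13.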

How the results depend on the processing

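Leaving out each library in turn gave 1371 to 3951 called genes for the knockout comparison (3059 with all libraries), 171 to 832 for the inhibitor comparison (712) and 392 to 1003 for the difference (974). The pathway counts ran from 8 to 27 (22), 1 to 7 (6) and 2 to 10 (8). Without the filter on low counts the inhibitor comparison had 1402 calls. Same-numbered libraries did not deviate together (r of -0.000327, -0.0508 and 0.00578 in the clone, 0.0106 and -0.0198 in the parental line). The unnumbered inhibitor library had r of 0.126 with DMSO replicate 2. Inhibitor replicate 3 had r of 0.124 with DMSO replicate 1, whose number differs. The main fits use no pairing, and whether libraries were paired is not known. With the replicate block the knockout comparison had 3563 calls and 26 pathway calls, and the inhibitor comparison, on the 4 libraries whose numbers match, had 549 and 5. The same 4 libraries without the block, an alternative chosen after seeing the data, gave 347 and 4.

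Values near 0 changed sign when libraries were left out. In the knockout comparison these were MSX1 (-0.027 to 0.054), MSX2 (-0.087 to 0.071) and SMAD1 (-0.038 to 0.024), and in the inhibitor comparison MSX2 (-0.0081 to 0.056, with -0.014 under the block and -0.014 for its libraries alone) and SMAD5 (-0.032 to 0.048). In the difference they were INHBB (-0.14 to 0.032), BMP2 (-0.57 to 1.09), MSX2 (-0.13 to 0.037) and SMAD4 (-0.12 to 0.15). BMP7 in the parental line was not called under 7 of 12 alternatives. The cause was not tested. Low counts limit FST, BMP2 in the clone, INHBA in the clone and ID3.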
